A study of Mus musculus with 2 samples.

Results

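The mouse genes Ly6g, Cd177, Cxcr4, Siglecf, Fpr1, Fpr2, Trem1, Clec4e and Hdc, which encode surface proteins and 1 enzyme used to follow neutrophil identity and maturation, were examined in single-cell RNA sequencing of MC38 tumors. These 9 genes were chosen by symbol among 32285 features, and each symbol matched 1 feature. MC38 is a mouse colon carcinoma line, and the tumors were grown subcutaneously in C57BL/6 mice aged 6 to 8 weeks. One library came from tumors labelled as untreated, which had been injected with vehicle (saline containing DMSO), and 1 from tumors injected with MSA-2, a small-molecule agonist of the innate immune sensor STING. Injections were intratumoral, 3 in all and 3 days apart, and tumors of 3 mice were pooled into each library. The methods say that cells were sorted, without naming a gate. Since each condition has 1 library, variation from tumor to tumor cannot be estimated and nothing was tested between conditions. Ranges in parentheses are exact 95% intervals that treat unique molecular identifiers (UMIs) or cells as independent and cover counting error only.

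Neutrophils carry much of their RNA as S100a8 and S100a9, and they mature in the bone marrow from granule-producing precursors into segmented cells that enter the blood. Ly6g is the surface antigen most often used to identify mouse neutrophils, and it increases as they mature. Cd177 encodes a surface glycoprotein of secondary granules that pairs with integrins. Cxcr4 encodes the receptor for Cxcl12 that retains young neutrophils in the marrow and is displayed again on aged ones. Siglecf is best known as an eosinophil marker and has been used to mark a tumor-associated neutrophil state. Fpr1 and Fpr2 encode receptors for formylated peptides from bacteria and mitochondria, Trem1 encodes an amplifying receptor that signals through Tyrobp, and Clec4e encodes Mincle, a C-type lectin that signals through Fcer1g. Hdc encodes histidine decarboxylase, which makes histamine, and is also high in mast cells and basophils.

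Cells in which S100a8 plus S100a9 made up at least 1% of UMIs formed the neutrophil-marker gate. The untreated library had 20 such cells among 13316 kept (0.150%, 0.0918% to 0.232%), while the MSA-2 library had 2571 among 13255 (19.4%, 18.7% to 20.1%). On the log2 scale the shares differed by 7.01 (6.38 to 7.73). The libraries held 198135335 and 204387165 UMIs over 14386 and 14617 deposited barcodes, of which 53 occurred in both. Gate cells were shallow, with median depths of 1295.5 UMIs (untreated) and 1830 UMIs (MSA-2), and they summed to 30158 and 5384900 UMIs. Levels are in CPM, which sets the UMIs read for a gene against a common total in every class. A single UMI in the untreated gate was therefore worth 33.2 CPM, and a count of 0 there allowed a level of up to 99.5 CPM, against 0.557 CPM in the MSA-2 gate. Of 9 other neutrophil marker genes (Csf3r, Cxcr2, Retnlg, Il1r2, Mmp9, G0s2, Lcn2, Il1b and Mxd1), all 9 were detected in both gates and summed to 26494 and 39562 CPM. Macrophage markers were also found in the gate, all 8 in both libraries, at a summed 10379 CPM in the untreated and 704 CPM in the treated gate. One untreated cell, which passed the macrophage gate, held 273 of the 313 untreated UMIs, and the other 19 cells gave 1621 CPM (1158 to 2208). Monocyte markers were detected for 4 of 6 genes at 895 CPM in untreated and 6 of 6 at 2820 CPM in MSA-2, with Ccr2 and F13a1 at 0 in the untreated gate. Markers of T/NK, B, mast, eosinophil and endothelial cells were at 0 in the untreated gate. Fibroblast markers were detected there for 5 of 5 genes at a summed 630 CPM, tumor markers for 3 of 5 at 497 CPM and dendritic markers for 1 of 8 at 33.2 CPM. In the MSA-2 gate, 4 of 7 eosinophil markers summed to 12.4 CPM with Prg2, Epx and Ear1 at 0, and mast and basophil markers summed to 86.9 CPM. Gates of other classes were passed by 1 untreated gate cell, a C1q-positive one, and by 219 MSA-2 gate cells (8.52%), most of them (189) through the Ly6c2, Ccr2 and F13a1 gate. The tumor-cell gate (Gng11, Ccn1 and Anxa1) was passed by 535 MSA-2 gate cells (20.8%) and no untreated one.

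The sequences just upstream of 5 of the genes are shown because Fpr1 and Fpr2 are neighbors, and Ly6g, Cd177 and Clec4e split the gate cells by the young, mature and old lists described further on. They are the 250 bases before the annotated start, 5′ to 3′ on the strand of the gene, taken from RefSeq on GRCm38.p6, and capitals mark matches to GAGGAAG, a PU.1-type motif, or TTGCNNAA, a C/EBP-type motif, on either strand. Ly6g lies at chr15:75155240-75159126 on the forward strand, and its window covers chr15:75155011-75155260. Cd177 (chr7:24743983-24760311) is on the reverse strand with a window at chr7:24760312-24760561. Fpr1 (chr17:17876471-17883940, reverse) and Fpr2 (chr17:17887824-17893952, forward) are neighbors that point away from each other with 3883 bases between them, and their windows are chr17:17883940-17884189 and chr17:17887574-17887823. Clec4e (chr6:123281789-123289870, reverse) has its window at chr6:123289872-123290121.
Ly6g: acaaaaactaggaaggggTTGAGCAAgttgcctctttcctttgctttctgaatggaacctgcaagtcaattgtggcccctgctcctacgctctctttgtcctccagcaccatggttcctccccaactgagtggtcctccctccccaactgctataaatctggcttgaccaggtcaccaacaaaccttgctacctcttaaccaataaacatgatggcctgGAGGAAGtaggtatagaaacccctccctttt
Cd177: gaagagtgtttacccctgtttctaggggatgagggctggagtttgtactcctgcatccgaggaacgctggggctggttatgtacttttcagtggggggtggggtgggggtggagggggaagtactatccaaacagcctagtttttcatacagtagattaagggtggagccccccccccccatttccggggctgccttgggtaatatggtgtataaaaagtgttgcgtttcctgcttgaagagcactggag
Fpr1: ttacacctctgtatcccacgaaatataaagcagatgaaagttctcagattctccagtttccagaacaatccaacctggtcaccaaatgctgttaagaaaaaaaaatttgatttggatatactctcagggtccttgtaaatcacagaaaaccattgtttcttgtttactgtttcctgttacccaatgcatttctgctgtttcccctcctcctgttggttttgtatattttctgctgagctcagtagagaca
Fpr2: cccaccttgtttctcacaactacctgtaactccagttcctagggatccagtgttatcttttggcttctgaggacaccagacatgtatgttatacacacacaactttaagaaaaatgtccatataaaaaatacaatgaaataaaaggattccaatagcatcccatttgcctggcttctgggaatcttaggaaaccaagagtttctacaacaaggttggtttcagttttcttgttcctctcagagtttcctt
Clec4e: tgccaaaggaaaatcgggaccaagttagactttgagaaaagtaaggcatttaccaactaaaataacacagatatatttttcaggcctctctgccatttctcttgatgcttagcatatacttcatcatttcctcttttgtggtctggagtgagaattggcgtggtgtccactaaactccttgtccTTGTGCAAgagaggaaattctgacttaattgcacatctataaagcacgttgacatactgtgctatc
The Ly6g window holds both motifs, GAGGAAG at 31 to 25 bases before the start and the C/EBP-type match TTGAGCAA at 232 to 225 bases. RefSeq gives Ly6g another start, whose window at chr15:75155079-75155328 holds the same GAGGAAG at 99 to 93 bases before it and no C/EBP-type match. Clec4e holds TTGTGCAA at 66 to 59 bases before its start, and the Cd177, Fpr1 and Fpr2 windows hold neither motif. Among 32851 windows of the same length, 10.6% hold GAGGAAG and 9.56% hold TTGCNNAA. Across all 9 genes, GAGGAAG was found for Ly6g and Siglecf and TTGCNNAA for Ly6g and Clec4e, while an interferon-response-type motif, 2 copies of GAAA with any 2 bases between them, is in 2.98% of windows and was in none of the 9. The remaining genes lie at chr1:128588199-128592293 (Cxcr4, reverse), chr7:43351341-43359531 (Siglecf, forward), chr17:48232768-48246924 (Trem1, forward) and chr2:126593667-126619299 (Hdc, reverse).

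**Figure D1:**
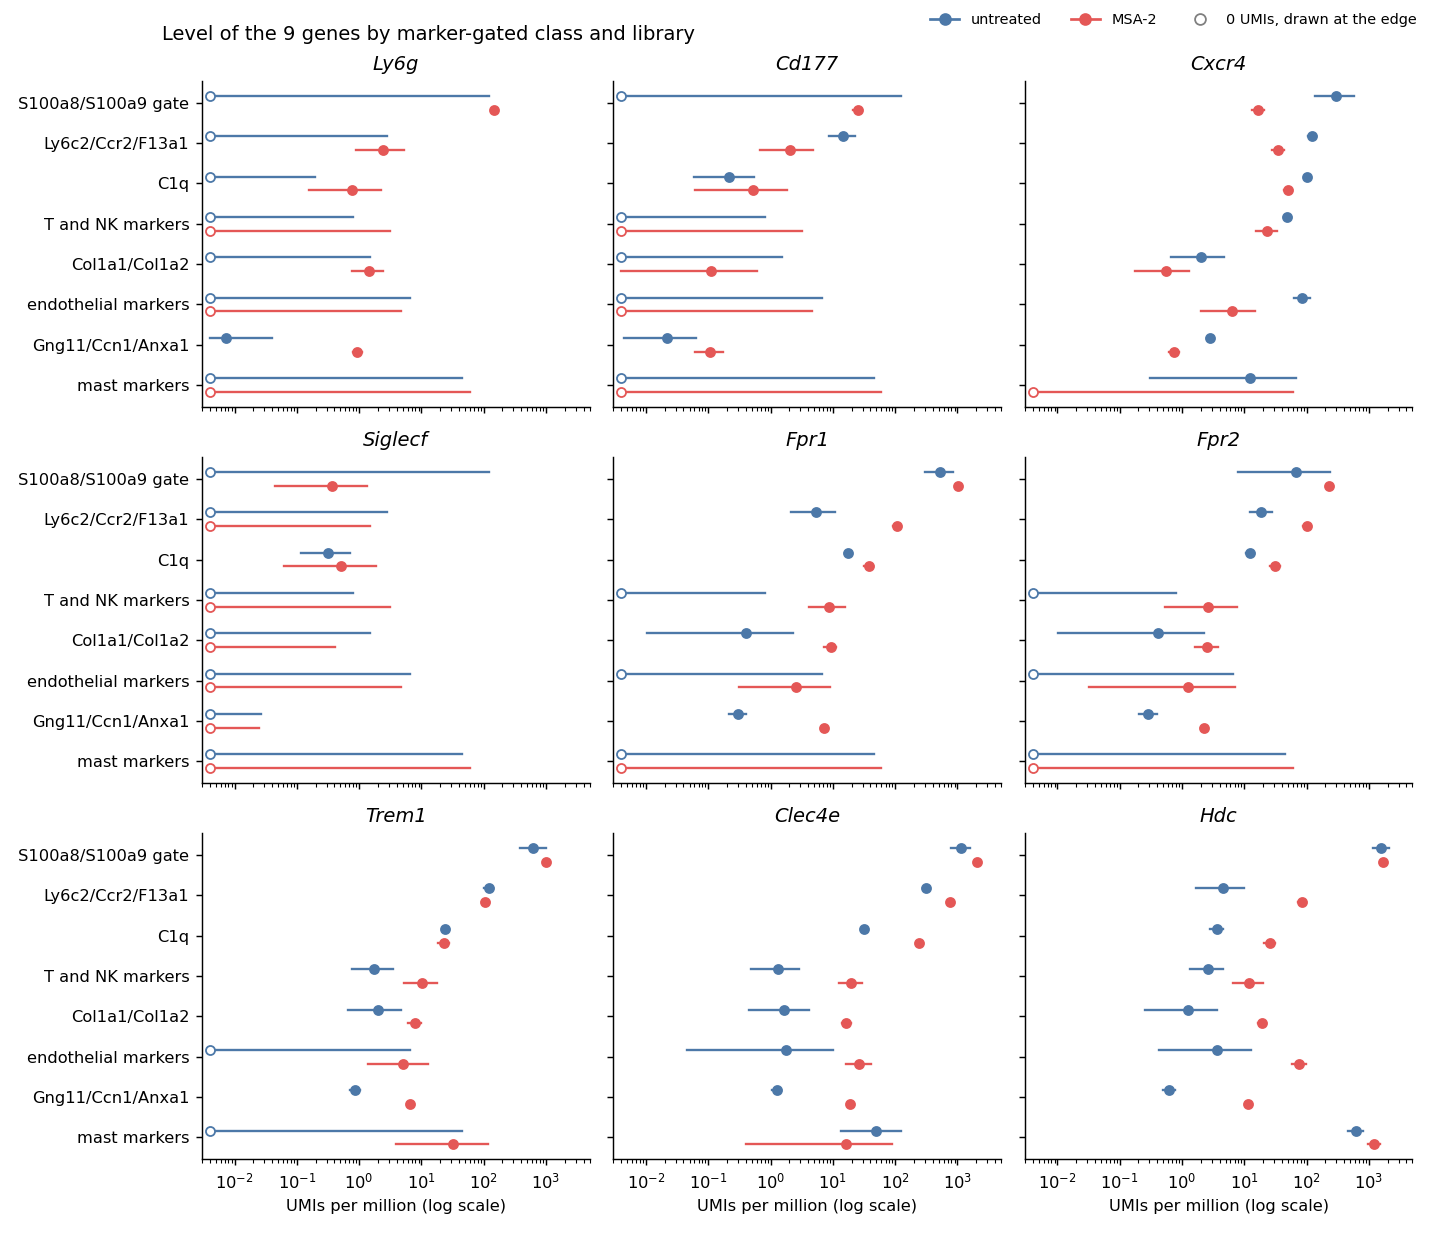
Level of each gene, in CPM on a log axis, in the S100a8/S100a9 gate and 7 other marker-gated classes of the untreated (blue) and MSA-2 (red) libraries; bars are exact 95% Poisson intervals, and open points are counts of 0 drawn at the axis edge with the bar reaching the upper limit. Fpr1, Trem1 and Clec4e stand highest in the gate in both libraries, Fpr2 does so in MSA-2 but overlaps monocytes in the untreated library, Ly6g is at 148 CPM in the MSA-2 gate and at 0 in the untreated one, and Cxcr4 is highest in the untreated gate.

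In the MSA-2 gate, Ly6g was read at 148 CPM (138 to 159), from 799 UMIs in 446 of 2571 cells (17.3%), with at most 11 UMIs in a cell. In the untreated gate no Ly6g UMI was found in 20 cells, and against the limit of 99.5 CPM that a count of 0 allows, the MSA-2 level was at least 1.49-fold higher. Cd177 was read at 25.1 CPM (21.02 to 29.7; 135 UMIs, 4.32% of cells) in the MSA-2 gate and at 0 in the untreated gate, where a level as low as this was not detectable. Siglecf had 2 UMIs in 2 cells of the MSA-2 gate (0.371 CPM) and 0 UMIs in the untreated gate. Ly6g and Cd177 transcripts were thus read in a minority of gate cells at this depth, and Siglecf hardly at all.

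Cxcr4 ran the other way. It was read at 298 CPM (136 to 567) in the untreated gate, from 9 UMIs in 6 of 20 cells, and at 16.7 CPM (13.4 to 20.5) in the MSA-2 gate, from 90 UMIs in 3.31% of cells. On the log2 scale, the MSA-2 level over the untreated one came to -4.16 (-5.15 to -2.98). Over the alternatives tried it lay between -4.27 and -2.93, the latter at a gate of 2%, where it rested on 2 untreated UMIs and its interval of -4.82 to 0.14 included 0. The 6 untreated cells with Cxcr4 held 2, 2, 2, 1, 1 and 1 of its UMIs. All 6 also had Hdc UMIs and 4 to 6 of the 9 neutrophil markers, and 3 had Fpr1, 3 had Trem1 and 2 had Clec4e UMIs. One of them held 74 C1q UMIs and passed the macrophage gate. Macrophage markers in the untreated gate lay mostly in this cell, as given above, and Cxcr4 was itself at 103 CPM in untreated C1q-positive macrophages. Without gate cells that pass a gate other than the tumor gate the log2 ratio was -4.07 (-5.18 to -2.71), and the part of macrophage RNA in it was not tested. Of the 14 untreated gate cells without Cxcr4, 13 had Clec4e UMIs.

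The formyl peptide receptors were both read higher in the MSA-2 gate. Fpr1 was at 531 CPM in untreated (16 UMIs in 8 cells) and 1033 CPM in MSA-2 gate cells (71.8% of cells), a log2 ratio of 0.96 (0.26 to 1.77). Fpr2 was at 66.3 CPM (2 UMIs) and 225 CPM (33.8% of cells), a log2 ratio of 1.76 whose interval of -0.09 to 4.81 includes no difference. Trem1 was at 630 CPM (19 UMIs in 11 cells) and 1018 CPM (77.0% of cells), with a log2 ratio of 0.69 (0.05 to 1.43). Clec4e was at 1127 CPM (34 UMIs in 15 cells) and 2043 CPM (88.0% of cells), with a log2 ratio of 0.86 (0.37 to 1.39). For Hdc, every untreated gate cell had a UMI, and the levels of 1592 and 1675 CPM differed by a log2 ratio of 0.07 (-0.33 to 0.51). At a gate of 2% the Hdc ratio was 0.61 (-0.07 to 1.39). It lay above those of Fpr1 (0.43, -0.37 to 1.39) and Trem1 (0.30, -0.48 to 1.21), whose intervals included 0 too. The Trem1 interval also included 0 with doublets kept (-0.11 to 1.26) and without gate cells that pass a gate other than the tumor gate (-0.05 to 1.41). Cxcr4 was the only gene read lower in the MSA-2 gate, among the 6 genes with UMIs in both.

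These ratios were set against those of all 11143 genes with at least 10 UMIs in both gates together. By a rule of more than 2-fold, 2.26% of them were higher in the MSA-2 gate and 24.7% lower. Genes with 0 UMIs in the untreated gate (53.5% of those compared) were entered at the limit of 3 counts, and the median log2 ratio of all genes was -2.61. Of the 8 members compared (all but Siglecf), 1 was past 2-fold higher (Fpr2) and 1 lower (Cxcr4). The Fpr2 call rested on 2 untreated UMIs and was lost at a gate of 2%, where its ratio was 0.79 (-1.06 to 3.84). Ly6g and Cd177, at 0 in the untreated gate, entered only at the limit of 3 counts, so no median of the members is given.

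**Figure D2:**
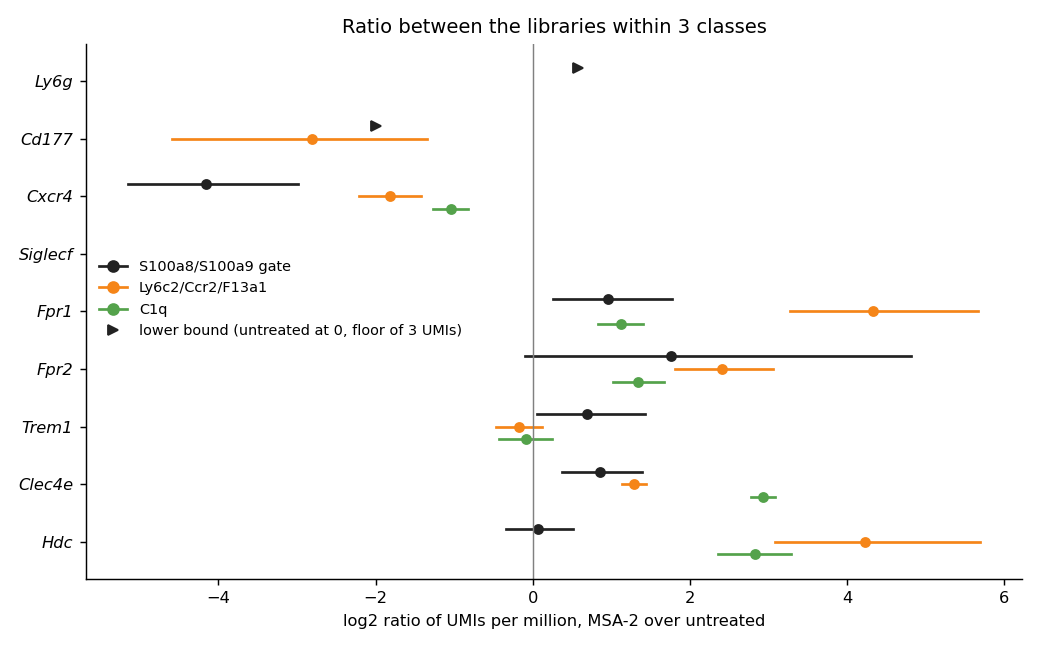
Log2 ratio of CPM, MSA-2 over untreated, for each gene with enough UMIs in the S100a8/S100a9 gate (black), the Ly6c2/Ccr2/F13a1 gate (orange) and the C1q gate (green), with exact 95% intervals for counting error. Cxcr4 lies left of 0 in all 3 classes, and Fpr1, Fpr2 and Clec4e lie right of 0 in all 3, while Hdc lies near 0 in the S100a8/S100a9 gate only.

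The gates differ in how far their cells exceed the 1% threshold, so the genes were also read in cells with 1% to 5% of S100a8 and S100a9 UMIs, leaving those UMIs out of the total. This band held 17 untreated and 844 MSA-2 cells. Cxcr4 was at 305 CPM (8 UMIs) against 16.9 CPM, a log2 ratio of -4.17 (-5.32 to -2.84). Of its 8 untreated UMIs here, 7 lay in the 9 cells at 1% to 2% (453 CPM, against 6.28 CPM in MSA-2) and 1 in the 8 cells at 2% to 5% (92.6 CPM, 2.35 to 516, against 22.6 CPM in MSA-2). Clec4e kept a ratio above 0, at 0.76 (0.26 to 1.31). For Fpr1 (0.44, -0.28 to 1.29), Fpr2 (1.49, -0.38 to 4.54), Trem1 (0.70, -0.11 to 1.66) and Hdc (-0.27, -0.70 to 0.20) the interval included 0. Ly6g was at 0 against 27.3 CPM, which is under the 114 CPM that a count of 0 allows in these untreated cells, so no Ly6g difference was detectable in the band.

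The gate was also set against all other kept cells of the same library. In MSA-2 tumors 14.3% of 19596 genes were more than 2-fold higher in the gate, and 8 of the 8 members compared were, with a median log2 ratio of 6.67 against -0.80 over all genes. The ratios ran from 2.50 (2.16 to 2.82) for Cxcr4 and 5.43 for Fpr2 through 5.61 for Clec4e, 6.60 for Fpr1, 6.75 for Trem1 and 6.75 for Hdc to 7.19 (6.96 to 7.43) for Ly6g and 7.36 (6.76 to 8.001) for Cd177. In untreated tumors 10.9% of 19139 genes were past that fold, and 6 of 8 members were, from 4.05 for Cxcr4 to 9.92 for Hdc. The other 2 members compared, Cd177 and Siglecf, were at 0 in this gate, where a count of 0 gives an upper limit only, so no median is given. Ly6g was at 0 in the untreated gate as well and had 1 UMI among all other untreated cells. Among classes of at least 50 cells in each library, with the gate, the gate had the highest level for 7 of 9 members in MSA-2 tumors, the exceptions being Cxcr4 and Siglecf, and for 6 of 9 in untreated tumors, the exceptions being Ly6g, Cd177 and Siglecf. In the untreated gate Ly6g, Cd177 and Siglecf were at 0, which allows up to 99.5 CPM. Their levels in the other classes were below that limit, so their order could not be settled. Siglecf in MSA-2 rested on 2 UMIs in the gate and 2 in macrophages. For Fpr2 the untreated lead over monocytes rested on 2 UMIs, and its log2 ratio of 1.81 (-1.31 to 3.82) included no difference. Of all genes with at least 10 UMIs over these classes, 8.37% of 19380 in MSA-2 and 10.9% of 18831 in untreated tumors had their highest level in the gate.

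Cxcr4 was read lower in the MSA-2 library in several classes outside the gate as well. In C1q-positive macrophages it was at 103 CPM untreated and 50.1 CPM treated (log2 ratio -1.04, -1.26 to -0.83), and in Ly6c2/Ccr2/F13a1-positive monocytes at 122 and 34.8 CPM (-1.81, -2.21 to -1.42). In cells with T and NK markers it was at 49.1 and 23.3 CPM (log2 ratio -1.08), in endothelial-marker cells at 85.8 and 6.31 CPM (-3.76, -5.45 to -2.44), and in tumor cells at 2.82 and 0.755 CPM (-1.90). In fibroblasts, with 5 UMIs in each library, the interval of -4.02 to 0.21 included 0. Dendritic-marker cells did not go this way, at 16.8 CPM untreated and 27.5 CPM (3.33 to 99.5) in MSA-2, the latter on 2 UMIs in 16 cells. The order of Cxcr4 levels also changed. In untreated tumors the gate, at 298 CPM, stood above monocytes at 122 CPM by a log2 ratio of 1.29 (0.13 to 2.25). At a gate of 2%, however, it was at 138 CPM (16.7 to 498) and not clear of them. In MSA-2 tumors the gate, at 16.7 CPM (13.4 to 20.5), stood below macrophages and monocytes. It was also below T/NK-marker cells (15.3 to 33.9 CPM), but the intervals overlapped.

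The receptors Fpr1, Fpr2 and Clec4e and the enzyme Hdc were read higher in MSA-2 monocytes and macrophages, and Trem1 was not. In monocytes, Fpr1 was at 5.28 and 106 CPM (log2 ratio 4.33), Fpr2 at 18.9 and 99.9 CPM (2.40), Clec4e at 311 and 760 CPM (1.29) and Hdc at 4.53 and 84.8 CPM (4.23). Trem1 was at 120 and 106 CPM, a log2 ratio of -0.17 (-0.46 to 0.12). In macrophages, Fpr1 was at 17.3 and 37.5 CPM (log2 ratio 1.12), Fpr2 at 12.4 and 31.4 CPM (1.34), Clec4e at 31.7 and 241 CPM (2.93) and Hdc at 3.60 and 25.4 CPM (2.82), while Trem1 was at 24.2 and 22.9 CPM (-0.08, -0.43 to 0.25). Outside the gate, Cd177 had its highest untreated level in monocytes, with 19 UMIs in 18 cells (14.3 CPM). This is under the 99.5 CPM that the 0 in the untreated gate allows. In MSA-2 monocytes Cd177 was at 2.05 CPM (log2 ratio -2.81, -4.59 to -1.34). Hdc was also high in cells with mast and basophil markers, at 621 CPM in 21 untreated cells and 1211 CPM in 15 MSA-2 cells.

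RNA released from broken cells can give UMIs in droplets of any class, and S100a9 was found in MSA-2 tumor cells at 208 CPM, in macrophages at 310 CPM and in monocytes at 294 CPM. In untreated tumor cells it was at 1.51 CPM. Of the MSA-2 tumor cells, 91.0% had an S100a9 UMI. Per 100 S100a9 UMIs, MSA-2 tumor cells held 0.45 Ly6g UMIs against 0.32 in the gate, 0.05 Cd177 UMIs in both, 3.52 Fpr1 UMIs against 2.25, 3.14 Trem1 UMIs against 2.22 and 5.49 Hdc UMIs against 3.65. The members in tumor cells therefore kept proportions to S100a9 within 2-fold of the gate for these genes, with Clec4e (8.93 against 4.45), Fpr2 (1.07 against 0.49) and Cxcr4 (0.36 against 0.04) further apart. In monocytes the proportions were far from those of the gate, with 258 Clec4e, 36.2 Fpr1, 33.9 Fpr2, 36.2 Trem1 and 28.8 Hdc UMIs per 100 of S100a9, but 0.83 for Ly6g. Macrophages held 77.7 Clec4e, 16.2 Cxcr4, 12.1 Fpr1, 10.1 Fpr2, 8.20 Hdc, 7.37 Trem1 and 0.25 Ly6g UMIs per 100 of S100a9. Of these 7 genes Hdc came nearest to its proportion in tumor cells (5.49), and the part of released RNA in its higher MSA-2 level in macrophages was not tested.

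To compare shares of cells with a UMI, 1000 UMIs were drawn at random from every cell, which left 2523 MSA-2 gate cells (48 were shallower). In these, 10.3% had Ly6g, 2.18% Cd177, 1.66% Cxcr4, 0.04% Siglecf, 56.4% Fpr1, 19.9% Fpr2, 59.3% Trem1, 76.1% Clec4e and 76.1% Hdc. In thinned MSA-2 tumor cells, taken as the background class, the shares were 0.07% for Ly6g, 0.03% for Cd177, 0.13% for Cxcr4, 1.05% for Fpr1, 0.36% for Fpr2, 0.96% for Trem1, 2.55% for Clec4e and 1.24% for Hdc. Tumor cells were deeper, with a median of 18811 UMIs against 1830 in the gate, and without thinning the shares were 17.3% in the gate against 1.93% in tumor cells for Ly6g, 4.32% against 0.23% for Cd177, 3.31% against 1.58% for Cxcr4, 71.8% against 12.9% for Fpr1 and 33.8% against 4.47% for Fpr2. They were 77.0% against 11.6% for Trem1, 88.0% against 28.3% for Clec4e and 88.1% against 18.7% for Hdc. That tumor cells lack these genes was not shown. For Cxcr4 the untreated tumor cells had 2.82 CPM and a UMI in 5.67% of cells, and the part of released RNA in these values was not tested. Cxcr4 was found in more of the thinned MSA-2 macrophages (4.66%) and monocytes (3.43%) than of the gate cells. Of 17 untreated gate cells that could be thinned, 5 had Cxcr4, 5 Fpr1, 1 Fpr2, 6 Trem1, 11 Clec4e and 14 Hdc.

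The balance between the neighboring receptor genes differed between classes. In the MSA-2 gate 4.59 Fpr1 UMIs (4.31 to 4.89) were read for each Fpr2 UMI, against 1.20 in macrophages and 1.07 (0.89 to 1.27) in monocytes. In the untreated gate the same ratio was 8 (1.88 to 71.7), and in untreated monocytes 0.28 (0.10 to 0.67). Clec4e over Trem1 was 2.01 in the MSA-2 gate, 10.5 in macrophages and 7.14 in monocytes, against 1.79, 1.31 and 2.59 in the untreated library. These are ratios of UMIs and not of transcripts corrected for capture, so only their differences between classes are described.

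**Figure D3:**
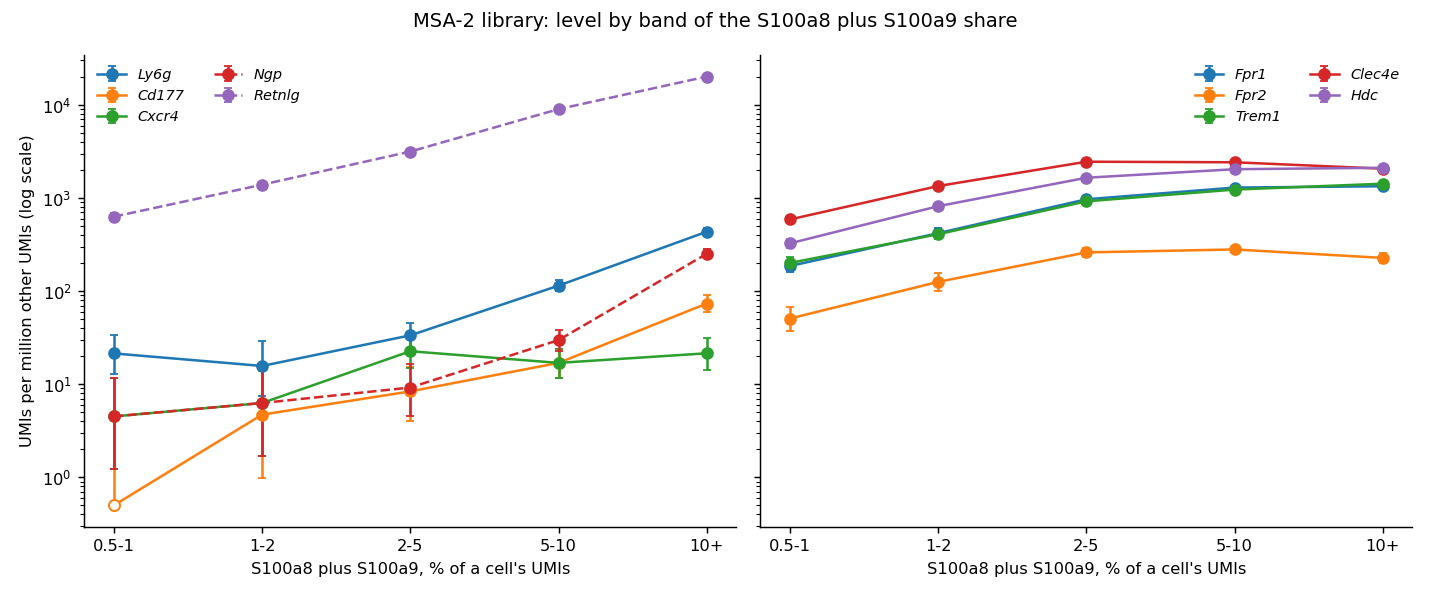
Level of each gene in CPM of the UMIs left after removing S100a8 and S100a9, on a log axis, in bands of the S100a8 plus S100a9 share of MSA-2 cells; bars are exact 95% Poisson intervals, dashed lines are Ngp and Retnlg, and the open Cd177 point is a count of 0. Ly6g, Cd177, Ngp and Retnlg climb toward the highest band, whereas Fpr2 and Clec4e are highest in a middle band and lower in the highest one.

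Within the MSA-2 library the members were read over bands of the S100a8 plus S100a9 share of a cell, from 0.5% to 1%, just outside the gate (146 cells), through 1% to 2%, just inside it (198 cells), 2% to 5% (646), 5% to 10% (1057) and 10% or more (670). Levels are CPM of the other UMIs. Ly6g was at 21.4, 15.7, 33.5, 114 and 435 in this order, and Cd177 at 0, 4.71, 8.37, 16.9 and 73.5. From the 1% to 2% band to the highest, Ly6g differed by a log2 ratio of 4.79 (3.90 to 5.86), a 27.7-fold difference, and Cd177 by 3.96 (2.37 to 6.27). Ngp, a secondary granule gene of young neutrophils, was at 4.51, 6.28, 9.21, 29.8 and 252. Its lower bands rested on 4, 4 and 11 UMIs with overlapping intervals, so only its later steps are resolved. Retnlg rose over every step (630, 1389, 3155, 9003 and 20146). Cxcr4 was at 4.51, 6.28, 22.6, 16.9 and 21.5.

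The receptors and Hdc differed less than Ly6g and Cd177 over the bands of the gate. Clec4e was at 588, 1344, 2453, 2419 and 2065 and Fpr2 at 50.7, 126, 260, 280 and 227, both with their highest level in a middle band. Fpr1 was at 186, 419, 969, 1294 and 1337, Trem1 at 201, 408, 921, 1232 and 1424 and Hdc at 326, 816, 1650, 2038 and 2110, rising over every step. At the last step the intervals overlapped for Fpr1 (1244 to 1345 and 1272 to 1404) and Hdc (1975 to 2103 and 2029 to 2194). Log2 ratios of the highest band over the 1% to 2% band were 1.67 for Fpr1, 0.86 for Fpr2, 1.80 for Trem1, 0.62 for Clec4e, 1.37 for Hdc and 1.77 (0.25 to 3.75) for Cxcr4. The macrophage gene C1qa ran opposite (501, 457, 141, 65.2 and 64.4), and the part of macrophage RNA in these values was not tested.

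**Figure D4:**
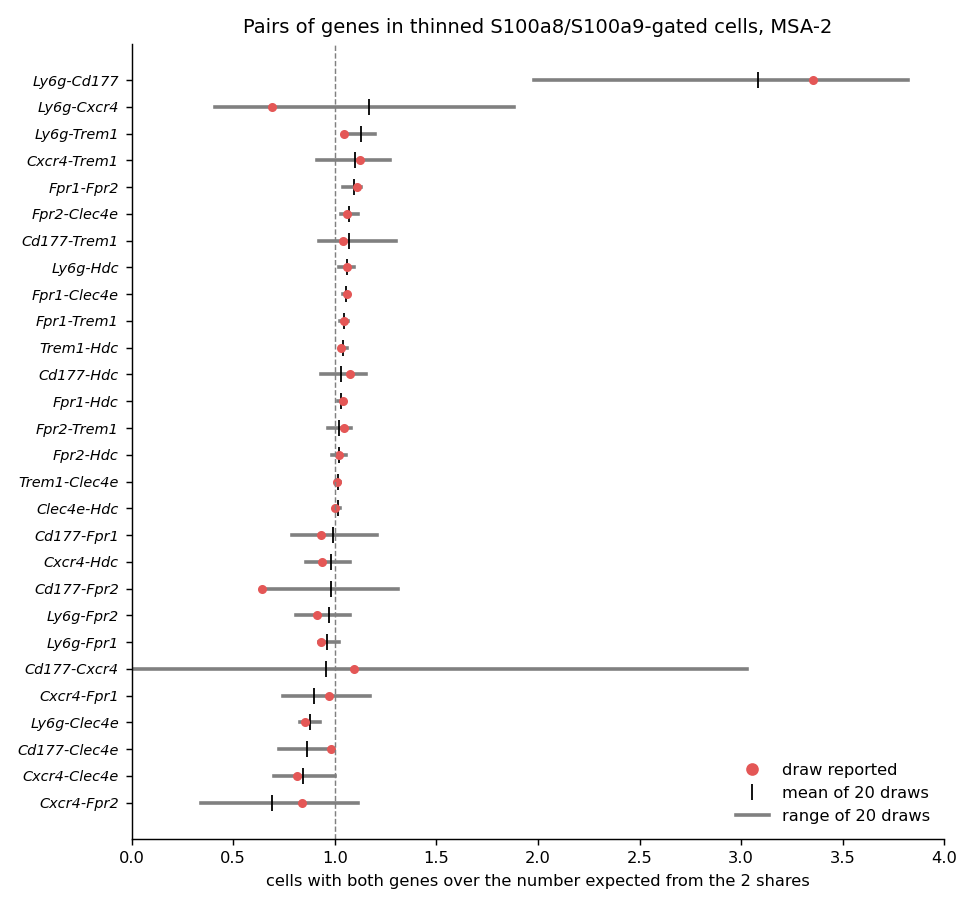
Cells with UMIs of both genes over the number expected if the genes were independent, for pairs of the 9 genes in thinned MSA-2 gate cells, with the spread over 20 random thinnings. Ly6g with Cd177 stands apart at 3.35 in the first thinning (1.98 to 3.82 over the 20), and Ly6g with Cxcr4 spreads on both sides of 1.

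Co-detection was read in the thinned MSA-2 gate cells as the number of cells with UMIs of both genes over the number expected from the 2 shares. Of 36 pairs, 26 had at least 5 cells expected, and 15 of these were above 1, with a median ratio of 1.02. Ly6g and Cd177 were found together in 19 cells against 5.67 expected, a ratio of 3.35 (2.02 to 5.22), and in 20 random thinnings it ran from 1.98 to 3.82. Thus 34.5% of Cd177-positive cells had a Ly6g UMI, against 10.3% of all cells. Both genes rise with the S100a8 plus S100a9 share of a cell. In thinned cells at 10% or more, 25.5% had Ly6g and 5.07% Cd177, against 0.53% for each gene at 1% to 2%. The part of this share in the ratio of the pair was not tested. Ly6g and Clec4e were found together in fewer cells than the shares give, at 0.85 (0.73 to 0.99; 0.83 to 0.93 over the thinnings). Fpr1 and Fpr2 were at 1.11 (0.99 to 1.23; 1.04 to 1.13 over the thinnings), and 62.5% of Fpr2-positive cells had Fpr1. Clec4e and Hdc, each in most cells, shared 1459 cells at a ratio of 0.999. Ly6g and Cxcr4 shared 3 cells against 4.33 expected (0.69, 0.14 to 2.02), and the thinnings gave 0.41 to 1.88 with a mean of 1.17, so no direction can be given for this pair. At a gate of 2% the ratio was 2.12 (1.06 to 3.79). None of the 9 genes was found in 46 cells (1.82%), 1 in 190 (7.53%), 2 in 560 (22.2%), 3 in 837 (33.2%), 4 in 671 (26.6%), 5 in 201 (7.97%) and 6 in 18 (0.713%).

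**Figure D5:**
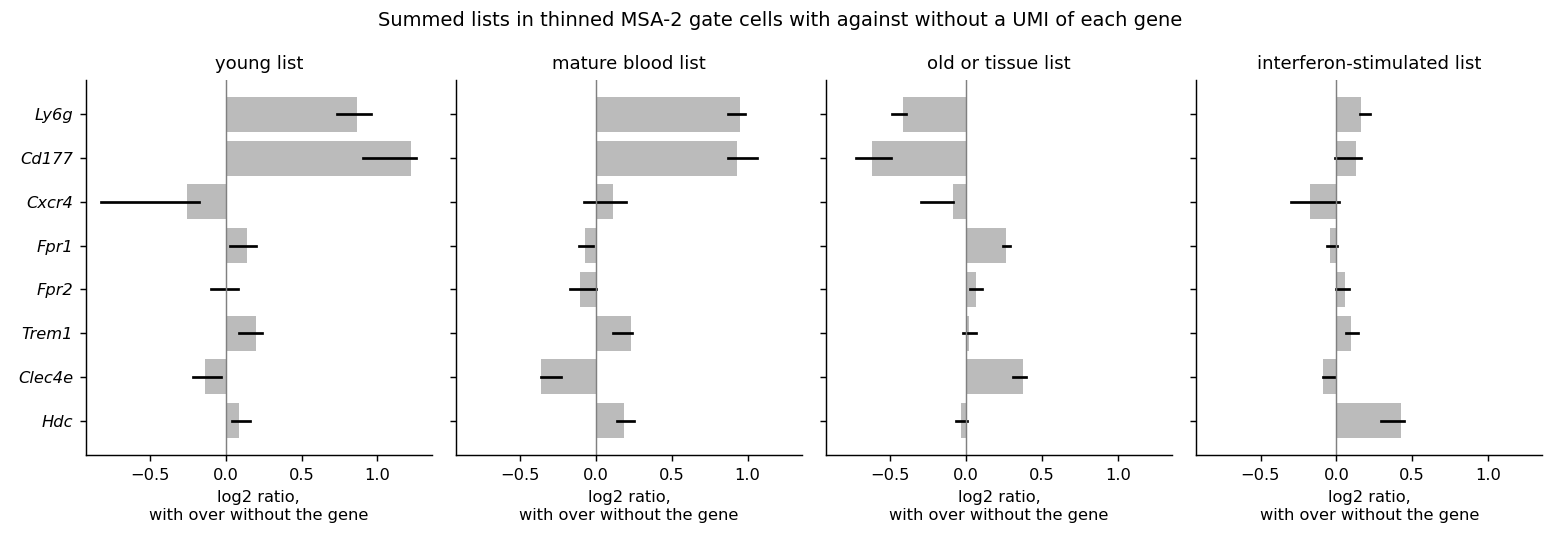
Log2 ratio of summed CPM of 4 neutrophil gene lists in thinned MSA-2 gate cells with a UMI of each gene over those without, with the range over 20 random thinnings. Cells with Ly6g or Cd177 lie above 0 for the young and mature lists and below 0 for the old list, cells with Clec4e lie on the opposite side for these 3 lists, and cells with Hdc lie above 0 for interferon-stimulated genes.

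Lists of young neutrophil genes (15 genes, granule proteins such as Ngp, Camp, Ltf and Lcn2), mature blood neutrophil genes (11, such as Retnlg and Mmp9), old or tissue neutrophil genes (24, such as Ccl3, Cxcl3, Tnf and Hilpda) and interferon-stimulated genes (10) were summed in thinned MSA-2 gate cells with and without each member. The members themselves were left out of the lists. Cells with Ly6g (260) had more of the young list than the 2263 without, a log2 ratio of 0.87 (0.80 to 0.93), more of the mature list (0.95) and less of the old list (-0.42, -0.44 to -0.40). With at least 10 UMIs, 8 of 9 young and 10 of 11 mature genes were higher, against 37.0% of all 8788 genes with that many UMIs. In cells with Ly6g, Retnlg held 4748 of the 7943 mature list UMIs, Lcn2 1122 of the 2244 young and Cxcl2 15463 of the 24594 old list UMIs. Camp and Ltf had 2 UMIs each there. Il1r2 was at 0.17 (-0.02 to 0.36), and Stfa2l1 lay on the other side (-0.39, -0.66 to -0.13). So did Camp of the young list (-0.40, -3.53 to 1.61), on 2 and 23 UMIs. In the old list 22 of 24 genes were lower and 2 higher, where 63.0% of all 8788 genes with at least 10 UMIs were lower. The intervals here assume independent UMIs, and over 20 thinnings the 3 ratios ran from 0.73 to 0.95, from 0.87 to 0.98 and from -0.49 to -0.40.

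Ly6g-positive cells also had a higher S100a8 plus S100a9 share, 11.7% against 7.098%. Within bands of that share, with the S100 UMIs left out, the young list ratio was 0.61 in the 1% to 5% band, 0.39 from 5% to 10% and 0.51 at 10% or more, the mature list ratio was 0.84, 0.63 and 0.51, and the old list ratio was -0.15, -0.29 and -0.26. The direction was thus kept in each of the 3 bands, at smaller young and mature list ratios than over the gate as a whole. Among single genes, Ngp was at 181 CPM with and 44.2 CPM without Ly6g (log2 ratio 2.03), Retnlg at 18262 and 7293 CPM (1.32), the interferon-induced transmembrane family gene Ifitm6 at 1500 and 575 CPM (1.38), the collagenase gene Mmp8 at 754 and 357 CPM (1.08) and Lcn2, which encodes an iron-siderophore binding protein, at 4315 and 2730 CPM (0.66). On the other side stood Hilpda, a lipid droplet gene induced by hypoxia (738 and 1770 CPM, -1.26), the glycolytic enzyme Hk2 (-1.01), the cytokine Tnf (-0.97) and the chemokine Ccl3 (6154 and 11237 CPM, -0.87). Cxcr2, the chemokine receptor of blood neutrophils, had a ratio of 0.33 whose interval of -0.08 to 0.72 included 0. Among 3820 genes ranked, Ngp, Cd177, Cstdc5, R3hdm4 and Prok2 had the highest ratios with Ly6g, and F10, Ccnf, Lgmn, Rbks and Aim2 the lowest.

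Cells with Cd177 (55) resembled those with Ly6g. Their log2 ratios were 1.22 (1.11 to 1.34) for the young list, 0.93 for the mature and -0.62 (-0.67 to -0.58) for the old list, where 22 of 24 genes were again lower, against 61.5% of all genes. Their S100 share was 11.8% against 7.48% in the cells without, and in the same 3 bands, of 8, 15 and 32 cells with Cd177, the young list ratio was 0.93, 0.94 and 0.93, the mature list ratio 0.61, 0.69 and 0.60 and the old list ratio -0.91, -0.14 and -0.59. Ngp was at 418 CPM with and 50.2 CPM without Cd177 (log2 ratio 3.06), and Pglyrp1, which encodes a granule protein that binds peptidoglycan, at 1345 and 372 CPM (1.85). Clec4e divided the cells the other way. The 1919 cells with Clec4e had less of the young list than the 604 without (-0.14, -0.19 to -0.08), less of the mature list (-0.36) and more of the old list (0.37, 0.36 to 0.39), with 19 of 24 genes higher, against 39.2% of all genes. Ngp was at 40.6 CPM with Clec4e and 114 CPM without, and Clec4n, a neighboring C-type lectin gene, was first in rank on 76 and 8 UMIs.

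Fpr1-positive cells (1424) had more of the old list (0.26, 0.25 to 0.27), and the young list ratio was 0.14 (median gene -0.095) and the mature list ratio -0.07. The chemokine gene Cxcl2 alone gave 108568 old list UMIs with Fpr1, at a ratio of 0.26. Single genes of the old list lay on both sides of 0, such as Il1a (0.53) and Jun (-0.31). Of all genes, 35.8% were higher with Fpr1. Chil3, a chitinase-like gene of young neutrophils and monocytes, was lowest in rank with Fpr1 (47.8 against 135 CPM), and it was at 1117 CPM in MSA-2 monocytes. For Fpr2 the ratios lay between -0.11 and 0.07 for all 4 lists. Trem1-positive cells (1496) had somewhat more of the young (0.20) and mature (0.23) lists, with an old list ratio of 0.02 (median gene -0.065). Their S100 share was 7.98% against 6.97% in the cells without, and that of cells with Clec4e was 7.38% against 8.18%, and the part of the share in these ratios was not tested. The 1920 cells with Hdc had more of the interferon-stimulated list than the 603 without (0.43, 0.40 to 0.45), with 10 of 10 genes higher against 40.5% of all genes, and over 20 thinnings this ratio was 0.29 to 0.45. The activation marker Cd69 was at 1043 CPM with and 517 CPM without Hdc (log2 ratio 1.01), and the heat shock gene Hspa1a at 94.8 and 484 CPM (-2.35). Cells without Hdc had a lower S100 share (6.90% against 7.78%), whose part in these values was not tested.

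Cxcr4-positive cells (42) had less of the young list (-0.26, -0.48 to -0.04; -0.82 to -0.18 over the thinnings), while the mature list ratio was 0.11 and changed sign over the thinnings. The old list ratio was -0.09 (-0.30 to -0.09 over the thinnings), with 13 of 24 genes higher and 11 lower, against 37.6% of all genes higher, and a median gene ratio of 0.0057. Ccnf, which encodes a cyclin-F-box protein, and Il10, an anti-inflammatory cytokine gene, ranked high with Cxcr4, on 12 and 9 UMIs. Setting the 257 cells with Ly6g and no Cxcr4 against the 39 with Cxcr4 and no Ly6g, the log2 ratio was 1.003 (0.78 to 1.24) for the young list, 0.72 for the mature, -0.28 (-0.32 to -0.23) for the old and 0.30 for the interferon-stimulated list. Over 20 thinnings the young list ratio was 0.93 to 1.46 and the old list ratio -0.32 to -0.07. These groups differed in their S100a8 plus S100a9 share, 11.7% against 8.09%. In bands of 1% to 5%, 5% to 10% and 10% or more, with 13 Cxcr4 cells in each and the S100 UMIs left out, the young list ratio was 0.61, 0.86 and 0.68, and the old list ratio was -0.31, -0.19 and 0.21 (0.12 to 0.31), so its direction turned in the highest band. With only cells of at least 1000 genes the old list ratio turned to 0.43. The young list ratio was 0.61 there.

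The lists and related genes were also set between the 2 gates, where 2.26% of all genes compared were higher and 24.7% lower in MSA-2 by more than 2-fold. Of the young list 12 of 15 genes were compared, 6 were past 2-fold higher and 0 lower. The gates differ in their S100a8 plus S100a9 share, and the young list rises with it. In thinned MSA-2 gate cells without Ly6g it was at 3085, 5183 and 8368 CPM of the other UMIs at 1% to 5%, 5% to 10% and 10% or more. The part of this share in the young list values was not tested. Lcn2 was at 398 and 2900 CPM (log2 ratio 2.87, 2.06 to 3.82). Of the other 5, Ifitm6 (4.44, 1.96 to 9.74), Mmp8 (3.63, 1.15 to 8.94) and Chil3 (1.9955, -0.49 to 7.30, which includes no difference) each rested on 1 untreated UMI, Wfdc21 (2.80, 1.25 to 5.08) on 3 and Anxa1 (1.43) on 4. Of the 11 mature genes 2 were higher, Retnlg (1691 and 8650 CPM, 2.35; 1372 and 2541 CPM in the 1% to 5% band, 0.89, 0.42 to 1.405, under 2-fold there) and Stfa2l1, and 2 lower, Csf3r, the receptor of the neutrophil growth factor G-CSF (663 and 263 CPM, -1.33), and Lyz2 (-1.96). Of the 24 old genes 3 were higher and 6 lower, and all 10 interferon-stimulated genes were higher, with a median log2 ratio of 2.21. Isg15 of that list was at 1219 and 2776 CPM in the 1% to 5% band, a log2 ratio of 1.19 (0.69 to 1.74).

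The relatives and partners of the members were compared by the same rule. Of 9 genes of the formyl peptide receptor family and its ligands, 5 were compared, the ligand genes Anxa1 (1.43, 0.07 to 3.30) and Saa3 were higher and the mitochondrial gene mt-Nd1, a source of formylated peptides, was lower (464 and 209 CPM, -1.15, -1.90 to -0.27). Saa3 was at 0 and 630 CPM, at least 6.33-fold higher by the 3-count limit. Both are high elsewhere in MSA-2 tumors, Saa3 at 12798 CPM in fibroblasts and Anxa1 at 1218 CPM in tumor cells, and the part of released RNA was not tested. Fpr3 was at 0 and 60.4 CPM, under the limit in the untreated gate. Of 8 TREM family and relay genes compared, 1 was higher, Pglyrp1, and 4 lower, and Trem3 was at 133 and 142 CPM. Tyrobp, the signaling adaptor of Trem1, was at 2918 and 1943 CPM (-0.59, -0.89 to -0.27). Of 11 C-type lectin and relay genes 0 were higher and 3 lower. The partner receptor Clec4d was at 2056 and 1876 CPM (-0.13, -0.49 to 0.25) and the adaptor Fcer1g at 2785 and 2257 CPM (-0.30, -0.61 to 0.02), while Clec4e, at 0.86, was itself under 2-fold. Of the Siglec genes 3 of 7 were compared and Siglece was lower. Among 6 Cd177 partner genes 0 were higher and 1 lower. Of 10 genes of the CXCR4 axis and of retention or release, 1 was higher, Cxcl1 (66.3 and 760 CPM, and 2896 CPM in MSA-2 tumor cells), and 1 lower, Csf3r. Among 7 histamine genes 2 could be compared, and neither was past 2-fold. Of 8 Ly6 genes near Ly6g, 5 were compared and 2 were higher, Ly6e (332 and 848 CPM) and Ly6c2, the latter on 1 untreated UMI.

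Over the 14 classes of at least 50 cells, counted per library, the genes with levels most like each member were found by Pearson correlation of log2 of CPM plus 10 among 9728 genes. These classes share libraries and released RNA, and the untreated gate is too small to be among them. The nearest were Gm38575, Gm2511 and Cxcr2 for Ly6g (0.999 for Gm2511), Rab44 for Cd177 (0.917), Inpp5k for Cxcr4 (0.945), 4933432I03Rik for Fpr1 (0.993), Tarm1 for Fpr2 (0.993), Trem3 for Trem1 (0.985), Clec4d for Clec4e (0.984) and Gm14010 for Hdc (0.966). Trem1 was also among the nearest 3 for Cd177 (0.900). Ly6g is at 148 CPM in the MSA-2 gate and at 2.46 CPM or less in every other class, so its correlations rest on that class and any gene high there alone would come near 1. Those of Cd177 rest mainly on the MSA-2 gate (25.1 CPM) and untreated monocytes (14.3 CPM).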

How the data were processed

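Raw UMI counts per gene and barcode were used as deposited. The authors made these counts with Cell Ranger (version 7.0.1 in the matrix headers, 7.0.0 in the submitters' processing notes, which also name mm10 and Seurat 4.3.0) from 10x Chromium 3′ v3.1 libraries. Cells needed 500 or more genes and no more than 20% mitochondrial UMIs, and doublets were removed with Scrublet (scanpy 1.11.5, assuming 0.8% per 1000 barcodes; 732 untreated and 731 MSA-2 barcodes, of which 0 and 95 lay in the gate). Counts of each class were summed and expressed as CPM. Kept cells had medians of 8280 and 9178 UMIs. Other classes were gated on shares of marker UMIs, with thresholds set after seeing the values, and cells passing several gates were left out. Intervals are Poisson, Clopper-Pearson or conditional binomial, with 3 counts as the limit for a count of 0. A fold of 2 was the rule for calls, since 1 library per condition allows no test. Genes named were the members, the genes of the lists, the 3 nearest genes by class profile and the 5 highest and 5 lowest in each split, and not all of them are printed. The members and lists were chosen with earlier results of these data known. Computations were tested on simulated data. Alternatives changed the cell filter, doublet removal, gate, thinning, scaling and added CPM. Python 3.11.15, numpy 2.4.6, scipy 1.17.1, pandas 2.3.3 and matplotlib 3.10.9 were used. Gene positions are from GENCODE M21 on GRCm38. Clec7a, in the C-type lectin list, was not used here, and 1 gene of the mature list is not reported by name.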

Additional observations from a re-analysis of the deposited data

How the results depend on the processing

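Over the alternatives, 54 of the 77 recomputed main values stayed within their counting intervals or, for counts, within 1.5 times, 22 moved and 1 changed sign. Of 102 values of single members, 82 stayed, 20 moved and 0 with an interval off 0 changed sign. The log2 ratio of Hdc, 0.07 with an interval across 0, was 0.61 (-0.07 to 1.39) at a gate of 2% and changed sign in 3 of them, to -0.074 with doublets kept, -0.12 by the mean of CPM per cell and -0.078 without gate cells that pass a gate other than the tumor gate. The share of MSA-2 cells in the gate, 19.4%, was 20.8% with at least 200 genes, 3.101% with at least 1000 genes, 20.5% at a gate of 0.5%, 17.9% at a gate of 2% and 17.7% without gate cells that pass a gate other than the tumor gate. The untreated share was 0.00797% (1 cell) with at least 1000 genes and 0.0826% at a gate of 2%. The Ly6g and Cxcr4 co-detection ratio was 0 with at least 1000 genes and 2.12 (1.06 to 3.79) at a gate of 2%. The young list ratio of Ly6g cells over Cxcr4 cells was 0.61 with at least 1000 genes, 1.24 with doublets kept and 0.74 with thinning to 500 UMIs. The old list ratio was 0.43 with at least 1000 genes, where it changed sign and the cause was not tested, -0.33 with at most 10% mitochondrial UMIs, -0.15 with doublets kept, -0.075 at a gate of 2%, -0.19 with thinning to 500 UMIs, -0.19 without thinning and -0.21 as the mean of 20 thinnings. Members more than 2-fold higher in the MSA-2 gate numbered 1 in the main analysis, 3 at a gate of 0.5%, 0 at a gate of 2%, 2 by the mean of CPM per cell and 3 with 1 CPM added. The gate without cells that pass other gates (tumor gate aside) and the 20 thinnings were chosen after seeing the data. No paired analysis was possible because each condition has 1 library, which also leaves no replicate to leave out. With at least 1000 genes the untreated gate gave no value for its members. Untreated values rest on 20 cells, and their depth limits what a count of 0 shows.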
